A study of Homo sapiens with 30 samples.

Results

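The genes described here are 9 members of a list named for the feedback response to cyclic AMP (cAMP) and the transcription factor CREB, SIK1, CREM, PDE4B, PDE4D, PER1, RASD1, GEM, C11orf96 and RGS2. They were found by gene symbol in a table of read counts for 63138 genes, all 9 were present, and all 9 passed the filter on low counts. They were selected partly on measured values of these data, namely lower levels with C5a and with vesicles of stimulated cells, and higher levels with control vesicles. Values from those comparisons are therefore given as a description, with no test. Expression was measured by RNA sequencing in 30 libraries of hCMEC/D3, an immortalised human brain microvascular endothelial cell line that stands in for the barrier between blood and brain in culture, in 10 groups of 3. In the 5 direct groups the cells received for 12 h serum-free medium alone (Control), 25 ng/mL TNFα (TNF), 10 ng/mL IL-1β (IL1b), 50 ng/mL of C5a, a fragment of complement (C5a), or 200 nM epinephrine (Epinephrine). In the 5 vesicle groups (EV-Control and, by stimulus, EV-TNF, EV-IL1b, EV-Epinephrine and EV-C5a) cells of the same line received for 12 h the extracellular vesicles enriched from supernatants of cells given one of those treatments. The vesicle dose is not given in the sources used here, and all groups are one immortalised line without neighbouring brain cells.

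Receptors coupled to stimulatory G proteins raise cAMP, which activates protein kinase A. The kinase phosphorylates CREB at cAMP response elements, and coactivators of the CRTC family join it to switch on a set of quickly induced genes. Several products of these genes then damp the same signal, by breaking down cAMP, by keeping CRTC proteins out of the nucleus, by occupying the response elements as repressors or by acting on G proteins. In endothelium, cAMP is known for strengthening the barrier between cells. The data here are RNA counts, which measure neither cAMP nor the activity of CREB.

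Library totals ran from 16643961 to 22112326 counts. The 30 pairs of replicates differed by a chi-square per gene of 2.04 to 12.9, so no pair agreed within sampling noise. Nothing in the labels says whether replicates were separate cultures, so p-values measure the spread between these libraries, which may be technical. All 10 endothelial markers exceeded 1 CPM (counts scaled to library size with trimmed mean of M-values factors), and their summed level was 683 to 1164 CPM, highest in Control and TNF. The summed levels were 1.39 to 3.92 CPM for 4 neuron markers, 0.868 to 5.72 for 4 astrocyte markers and 0.576 to 2.26 for 5 leukocyte and microglia markers, with STMN2 and AQP4 at 0 in every library. Summed levels of 6 pericyte and smooth muscle markers (321 to 511 CPM), 5 fibroblast markers (186 to 314) and 4 epithelial markers (160 to 362) were higher and varied between groups, and their part in the results was not tested. Most of these sums came from CSPG4 (group means of 267 to 430 CPM), COL1A1 and COL1A2 (58.3 to 122 and 127 to 208) and KRT18 (155 to 336). In the same lists PDGFRB, a pericyte marker, had group means of 35.2 CPM (TNF) to 84.8 (EV-Control). Those of KRT8 were 12.4 to 23.3 CPM and those of RGS5 5.38 to 9.89. ACTA2, MYH11 and LUM had group means of at most 3.04, 1.48 and 1.92 CPM. For KCNJ8, DCN, PDGFRA, EPCAM and CDH1 the group means were at most 0.0508, 0.316, 0.192, 0.191 and 0.174 CPM. Mitochondrial genes took 1.72% to 3.14% of counts, least in TNF and most in EV-Epinephrine. In these bulk libraries, fewer cells with a transcript and less of it per cell cannot be told apart.

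The DNA around the start sites shows how the members differ in the element that CREB binds. RefSeq promoter windows (GRCh38.p14, 250 bases before to 50 after each start) matched 7 of the 9 members, all but GEM and C11orf96, and were searched on both strands for the palindrome TGACGTCA, for TGACGTC and its reverse complement GACGTCA, and for the shorter TGACG and its reverse complement CGTCA. The longer motifs contain the shorter ones. Of all 35116 windows, 1.85% held TGACGTCA, 3.45% held the 7-base motif and 24.6% held the 5-base motif. The 5 stretches below carry the motifs, or lack them in the case of PER1, which is shown beside SIK1 because their levels had the same order over the groups. Stretches inside an exon annotated in GENCODE 29 are left out. The CREM stretch surrounds the start of a transcript annotated in RefSeq, with the motif just inside that transcript. Capitals mark the longest motif found.
SIK1, chr21:43427190-43427381, minus strand: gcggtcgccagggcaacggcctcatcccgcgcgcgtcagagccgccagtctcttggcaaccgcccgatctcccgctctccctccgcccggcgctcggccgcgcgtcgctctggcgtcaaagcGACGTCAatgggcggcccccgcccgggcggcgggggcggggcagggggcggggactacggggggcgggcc
CREM, chr10:35195841-35195870, plus strand: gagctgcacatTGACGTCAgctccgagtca
PER1, chr17:8152436-8152654, minus strand: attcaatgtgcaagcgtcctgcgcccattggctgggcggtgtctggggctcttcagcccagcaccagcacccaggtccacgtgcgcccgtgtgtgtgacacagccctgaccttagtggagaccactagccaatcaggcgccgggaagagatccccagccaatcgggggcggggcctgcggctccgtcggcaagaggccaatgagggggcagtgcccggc
RASD1, chr17:17496396-17496645, minus strand: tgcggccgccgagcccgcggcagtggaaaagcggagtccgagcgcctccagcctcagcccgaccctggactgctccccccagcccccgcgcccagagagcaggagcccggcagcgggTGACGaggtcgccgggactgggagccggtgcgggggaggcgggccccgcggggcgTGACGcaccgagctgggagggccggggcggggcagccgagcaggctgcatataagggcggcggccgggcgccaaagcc
RGS2, chr1:192808789-192809038, plus strand: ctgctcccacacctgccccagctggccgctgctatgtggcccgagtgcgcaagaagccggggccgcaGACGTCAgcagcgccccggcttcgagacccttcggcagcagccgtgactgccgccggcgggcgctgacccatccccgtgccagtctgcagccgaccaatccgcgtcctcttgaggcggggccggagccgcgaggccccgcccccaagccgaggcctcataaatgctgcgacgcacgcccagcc

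The SIK1 stretch has GACGTCA starting 128 bases before the start site, and RGS2 has it 183 bases before. RASD1 has 2 copies of TGACG and neither longer motif. CREM has 7 windows, and the palindrome lies 2 bases after the start of one transcript inside the gene and 50 before the next start. PDE4B has none of the motifs in 6 windows, PDE4D has 1 copy of the 5-base motif in 8 windows, and PER1 has none in its single window. Absence says only that these letters are not in these windows.

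SIK1 (ENSG00000142178, chromosome 21, 43414483 to 43427189 on GRCh38) encodes salt-inducible kinase 1, which phosphorylates CRTC coactivators and holds them in the cytoplasm. Its level was 148, 142 and 143 CPM in the Control libraries, 126, 143 and 128 in TNF and 63.8, 77.5 and 77.5 in Epinephrine. It was 23.2, 25.2 and 22 CPM in IL1b and 17.2, 16.3 and 14.6 in C5a. Control and TNF overlapped, Epinephrine lay below both, and IL1b and C5a formed the low end without overlap. SIK1 fell with IL1b by 2.62 on the log2 scale (SE 0.0724, 6.13-fold lower, adjusted p = 1.75e-25 by the quasi-likelihood test of edgeR, adjusted over all genes after Benjamini and Hochberg, the test behind each adjusted p below). With Epinephrine it fell by 0.98 (SE 0.0646, adjusted p = 8.02e-14, edgeR). TNF differed from Control by -0.13 (SE 0.0629, adjusted p = 0.0909, edgeR), with an interval of -0.25 to 0. That difference passed the threshold under several settings, at -0.14 (adjusted p = 0.00578, edgeR) when only the TNF and Control groups were fitted and at -0.18 (adjusted p = 0.028, edgeR) without TNF replicate 2. In the vesicle groups SIK1 stood at 171, 193 and 203 CPM in EV-Control and 178, 151 and 163 in EV-C5a. It stood at 97.7, 116 and 120 CPM in EV-TNF, 110, 112 and 115 in EV-IL1b and 65.6, 75.7 and 72.2 in EV-Epinephrine. The 9 libraries of EV-TNF, EV-IL1b and EV-Epinephrine all lay below every library of EV-Control and EV-C5a.

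The SIK1 level is that of a single row, and a near-identical copy of the gene has a row of its own. That row (ENSG00000275993, SIK1B in GENCODE 29) carries no symbol in the count table, and its level was 160 ± 12.4 CPM in Control, 25.4 ± 1.06 in IL1b and 186 ± 33.8 in EV-Control (mean and SD, n = 3). SIK1 held 44.3% to 53.7% of the summed counts in the 30 libraries, so how reads were shared between the copies is uncertain. For the sum of both, the log2 difference from Control was -2.63 with IL1b (adjusted p = 5.14e-23, edgeR), -0.98 with Epinephrine (adjusted p = 6.79e-13) and -0.14 with TNF (adjusted p = 0.0486). In these comparisons the sum thus moved as SIK1 did, except that TNF came to lie just past the threshold. The summed libraries of EV-Control (318, 402 and 404 CPM) overlapped those of Control (320, 304 and 290), whereas those of the SIK1 row did not.

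CREM (ENSG00000095794, chromosome 10, 35126791 to 35212958) encodes activators and repressors of the CREB family, among them the inducible repressor ICER made from an internal promoter. The counts are per gene and do not separate ICER from the longer forms. CREM varied least of the 9, by 1.51-fold between its highest and lowest group. The Control libraries had 29.3, 31.2 and 31.5 CPM, those of TNF 37.1, 39.7 and 39.9, those of Epinephrine 35.8, 42 and 41.1 and those of IL1b 33.2, 29.8 and 33. All TNF and Epinephrine libraries lay above Control, whereas IL1b overlapped it. CREM rose with Epinephrine by 0.38 (SE 0.0737, adjusted p = 0.000152, edgeR) and with TNF by 0.34 (SE 0.0746, adjusted p = 0.000177, edgeR). The TNF call depended on the scaling, and dividing by total counts left 0.07 (adjusted p = 0.427, edgeR). The difference of IL1b was 0.07 (interval -0.08 to 0.22, adjusted p = 0.471, edgeR). C5a had 28.1, 29.7 and 29.4 CPM and EV-Control had 38.4, 34.2 and 28, both overlapping Control. EV-TNF (27.1, 25.6 and 28.3 CPM), EV-IL1b (24, 27.3 and 27.4) and EV-Epinephrine (27.5, 27.3 and 26.9) were the lowest of the 10 groups by mean, and EV-C5a had 29.8, 32.1 and 36.

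**Figure D1:**
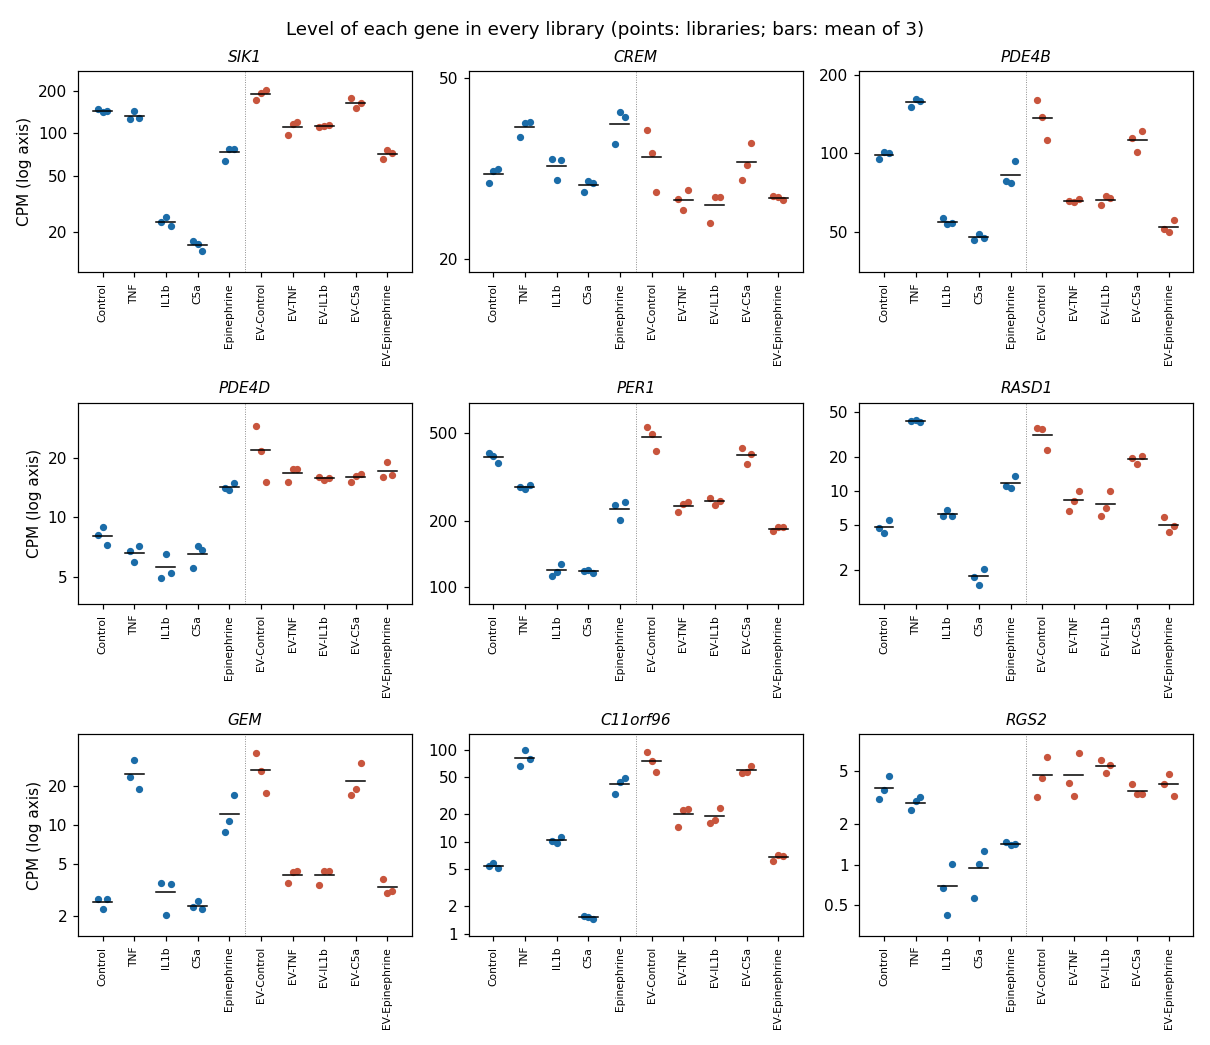
Level of each of the 9 genes in CPM on a log axis, in each of the 30 libraries (points) with the mean of 3 (bars), direct groups in blue and vesicle groups in red. RASD1, GEM and C11orf96 are high in TNF, EV-Control and EV-C5a and lower in the other vesicle groups, while CREM spans 26.2 to 39.6 CPM over all group means.

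PDE4B and PDE4D encode phosphodiesterases that hydrolyse cAMP, and the levels of the pair followed different orders over the groups. PDE4B (ENSG00000184588, chromosome 1, 65792514 to 66374579) had 95.5, 101 and 100 CPM in Control, 151, 162 and 159 in TNF and 78.3, 76.8 and 93.8 in Epinephrine. It had 56.5, 53.8 and 54.3 CPM in IL1b and 46.7, 49.1 and 47.7 in C5a. None of these 4 groups overlapped Control, and TNF was the group above it. PDE4B rose with TNF by 0.67 (SE 0.0582, adjusted p = 3.22e-12, edgeR) and fell with IL1b by 0.84 (SE 0.0612, adjusted p = 8.23e-14, edgeR) and with Epinephrine by 0.24 (SE 0.0593, adjusted p = 0.0024, edgeR). IL1b and TNF, the 2 cytokines, stood 2.85-fold apart (log2 difference of IL1b from TNF -1.51, SE 0.0606, adjusted p = 2.6e-21, edgeR). With vesicles PDE4B had 160, 138 and 113 CPM in EV-Control and 115, 101 and 122 in EV-C5a. It had 65.9, 65.2 and 66.9 CPM in EV-TNF, 63.6, 68.7 and 67.4 in EV-IL1b and 51.5, 50.2 and 55.9 in EV-Epinephrine. EV-TNF thus lay below EV-Control for PDE4B, whereas TNF itself lay above Control.

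PDE4D (ENSG00000113448, chromosome 5, 58969038 to 60522120) rose with Epinephrine, with which PDE4B fell. It had 8.1, 8.92 and 7.2 CPM in Control, 14.1, 13.7 and 14.9 in Epinephrine and 6.75, 5.91 and 7.11 in TNF. It had 4.95, 6.55 and 5.22 CPM in IL1b and 5.54, 7.15 and 6.83 in C5a. The Epinephrine libraries lay above all other direct libraries. PDE4D rose with Epinephrine by 0.83 (SE 0.13, 1.78-fold, adjusted p = 7.27e-06, edgeR), and Epinephrine also stood above TNF by 1.13 (SE 0.135, adjusted p = 8.44e-09) and above IL1b by 1.36 (SE 0.136, adjusted p = 4.36e-10). It fell with IL1b by 0.53 (SE 0.144, adjusted p = 0.00279, edgeR). TNF differed from Control by -0.30 (SE 0.143, adjusted p = 0.0801, edgeR), although the libraries did not overlap, and without Control replicate 3 the value was -0.37 (adjusted p = 0.0471). IL1b differed from TNF by -0.23 (interval -0.53 to 0.07, adjusted p = 0.229, edgeR). Every vesicle library was higher than every direct library, with 29, 21.6 and 15 CPM in EV-Control and 15.1 to 19.1 in the other 4 vesicle groups. Those 4 groups overlapped EV-Control, whose lowest library was at 15. That library, replicate 3, stood just above Epinephrine replicate 3 (14.9 CPM), and with CPM of total counts it lay below it (15.1 against 15.2).

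PER1 (ENSG00000179094, chromosome 17, 8140472 to 8156506) encodes a repressor of the circadian clock and had the highest level per exon length of the 9 rows. It reached 55.7 ± 3.1 CPM per kilobase in Control, against 27.4 ± 0.587 for the SIK1 row, 11.4 ± 0.337 for PDE4B, 5.38 ± 0.215 for CREM and at most 2.99 for the other 5 (n = 3). With the reads of its copy added, SIK1 stood at 57.8 ± 2.85 CPM per kilobase of its own exon length (n = 3), within the spread of PER1. In the direct groups PER1 had 408, 396 and 366 CPM in Control, 284, 279 and 290 in TNF and 237, 202 and 243 in Epinephrine. It had 113, 117 and 128 CPM in IL1b and 119, 120 and 116 in C5a. The order was Control, TNF, Epinephrine and then IL1b and C5a, of which the last 2 overlapped. PER1 fell with IL1b by 1.70 (SE 0.058, 3.24-fold lower, adjusted p = 1.39e-21, edgeR), with Epinephrine by 0.77 (SE 0.056, adjusted p = 2.6e-12, edgeR) and with TNF by 0.46 (SE 0.0557, adjusted p = 2.02e-08, edgeR). Epinephrine stood below TNF by -0.31 (adjusted p = 2.09e-05, edgeR), but by -0.05 (adjusted p = 0.47) when libraries were scaled by total counts. The vesicle libraries had 531, 495 and 415 CPM in EV-Control, 430, 362 and 401 in EV-C5a and 254, 236 and 246 in EV-IL1b. EV-TNF had 219, 239 and 244 CPM and EV-Epinephrine 180, 187 and 187. EV-Epinephrine was the lowest vesicle group and overlapped none of the others.

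RASD1, GEM and RGS2 act on G protein signalling or are small G proteins themselves. RASD1 (ENSG00000108551, chromosome 17, 17494437 to 17496395) encodes a Ras-like protein induced by dexamethasone. It had 4.71, 4.27 and 5.51 CPM in Control, 41.3, 42.3 and 40.8 in TNF and 11, 10.7 and 13.6 in Epinephrine. It had 5.98, 6.82 and 5.96 CPM in IL1b and 1.76, 1.48 and 2.06 in C5a. TNF was the highest of all 10 groups and overlapped none. RASD1 rose with TNF by 3.10 (SE 0.12, 8.58-fold, adjusted p = 2.78e-22, edgeR) and with Epinephrine by 1.30 (SE 0.13, 2.47-fold, adjusted p = 9.84e-10, edgeR). Its rise with IL1b was 0.38 (SE 0.141, adjusted p = 0.0253, edgeR), and it was not past the threshold in the fit of all 30 libraries (0.37, adjusted p = 0.125), with total-count scaling (0.30, adjusted p = 0.0784), or without Control replicate 1 (0.38, adjusted p = 0.0595), Control replicate 2 (0.30, adjusted p = 0.128) or IL1b replicate 2 (0.32, adjusted p = 0.11). Among vesicle libraries RASD1 had 35.5, 35 and 22.8 CPM in EV-Control and 19.5, 17.4 and 20.4 in EV-C5a. It had 6.71, 8.19 and 9.88 CPM in EV-TNF, 6.06, 7.03 and 10 in EV-IL1b and 5.92, 4.33 and 4.9 in EV-Epinephrine. RASD1 was the single member for which EV-C5a lay wholly below EV-Control.

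GEM (ENSG00000164949, chromosome 8, 94249253 to 94262350) encodes a small GTPase that inhibits voltage-gated calcium channels. It was low in Control (2.7, 2.24 and 2.7 CPM), IL1b (3.56, 2.01 and 3.51) and C5a (2.33, 2.59 and 2.26), which overlapped. It was high in TNF (23.3, 31.9 and 18.9 CPM) and intermediate in Epinephrine (8.87, 10.8 and 16.9). GEM rose with TNF by 3.28 (SE 0.279, 9.7-fold, adjusted p = 1.09e-07, edgeR) and with Epinephrine by 2.28 (SE 0.292, 4.85-fold, adjusted p = 4.47e-05, edgeR). The IL1b difference was 0.26 (interval -0.51 to 1.02, adjusted p = 0.587, edgeR). With vesicles GEM had 36, 25.9 and 17.7 CPM in EV-Control and 17.1, 18.8 and 30.2 in EV-C5a, against 2.97 to 4.43 in the 9 libraries of EV-TNF, EV-IL1b and EV-Epinephrine. Those 9 libraries lay just above the Control libraries, which received no vesicles.

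RGS2 (ENSG00000116741, chromosome 1, 192809039 to 192812283) encodes a GTPase activator that shuts off G protein signals. It had the fewest reads of the 9, between 8 and 119 counts in a library, so its values are the least precise. Control had 3.07, 3.58 and 4.61 CPM, TNF 2.54, 2.96 and 3.18, IL1b 0.67, 0.423 and 1.01, C5a 0.569, 1.01 and 1.26 and Epinephrine 1.47, 1.41 and 1.42. The libraries of IL1b, C5a and Epinephrine all lay below those of Control and TNF. RGS2 fell by 2.40 with IL1b (SE 0.309, 5.27-fold lower, adjusted p = 4.91e-08, edgeR) and with Epinephrine by 1.37 (SE 0.276, 2.59-fold lower, adjusted p = 0.000251, edgeR). TNF differed from Control by -0.37 (interval -0.90 to 0.15, adjusted p = 0.236, edgeR) and by -0.65 (adjusted p = 0.0294) with total-count scaling. All 15 vesicle libraries lay between 3.18 and 6.76 CPM, and no treated vesicle group was separate from EV-Control.

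C11orf96 (ENSG00000187479, chromosome 11, 43942505 to 43944338), a gene of little known function, had the widest range, 53.9-fold between the means of TNF and C5a. It had 5.4, 5.87 and 5.18 CPM in Control, 66.7, 98.6 and 79.5 in TNF and 32.6, 44.6 and 48.8 in Epinephrine. It had 10.3, 9.78 and 11.3 CPM in IL1b and 1.55, 1.53 and 1.46 in C5a. No pair of direct groups overlapped. C11orf96 rose with TNF by 3.90 (SE 0.174, 14.9-fold, adjusted p = 1.93e-11, edgeR), with Epinephrine by 2.95 (SE 0.179, 7.71-fold, adjusted p = 9e-09, edgeR) and with IL1b by 0.94 (SE 0.209, 1.92-fold, adjusted p = 0.00167, edgeR). The vesicle libraries had 94.3, 75.4 and 56.7 CPM in EV-Control, 55.7, 57.8 and 66.9 in EV-C5a and 14.5, 22.3 and 22.9 in EV-TNF. EV-IL1b had 16, 17.3 and 23.2 CPM and EV-Epinephrine 6.13, 7.19 and 7. EV-Epinephrine lay closest to Control, though above it. Genes that overlap exons of C11orf96, one of them antisense, had at most 19 counts in any library.

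Read by comparison, the stimuli differed in how many members they raised or lowered. The Control libraries in these comparisons also served in the comparisons of C5a and of EV-Control with Control, both of which helped to choose the genes, and the 3 comparisons share them. TNF raised 5 members (CREM, PDE4B, RASD1, GEM and C11orf96) and lowered 1 (PER1), against 27.5% of all 15908 genes tested called higher and 25.3% called lower. The median log2 difference was 0.34 over the members and -0.012 over all genes. Scaling factors of the TNF group were low, 0.842 to 0.861, and with scaling by total counts the median over all genes was -0.288, which gave 4 members higher and 4 lower, with 14.4% and 48.9% of all genes. IL1b raised 2 members (RASD1 and C11orf96) and lowered 5 (SIK1, PDE4B, PDE4D, PER1 and RGS2), against 24% and 22.6% of all genes, and the median was -0.53 over the members and -0.011 over all genes. Under total-count scaling RASD1 dropped out, which left 1 raised and 5 lowered with IL1b (18.3% and 29.1% of all genes). With Epinephrine all 9 members passed the threshold, against 25.2% of all genes. It raised 5 (CREM, PDE4D, RASD1, GEM and C11orf96) and lowered 4 (SIK1, PDE4B, PER1 and RGS2), where 13.5% and 11.8% of all genes were called.

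**Figure D2:**
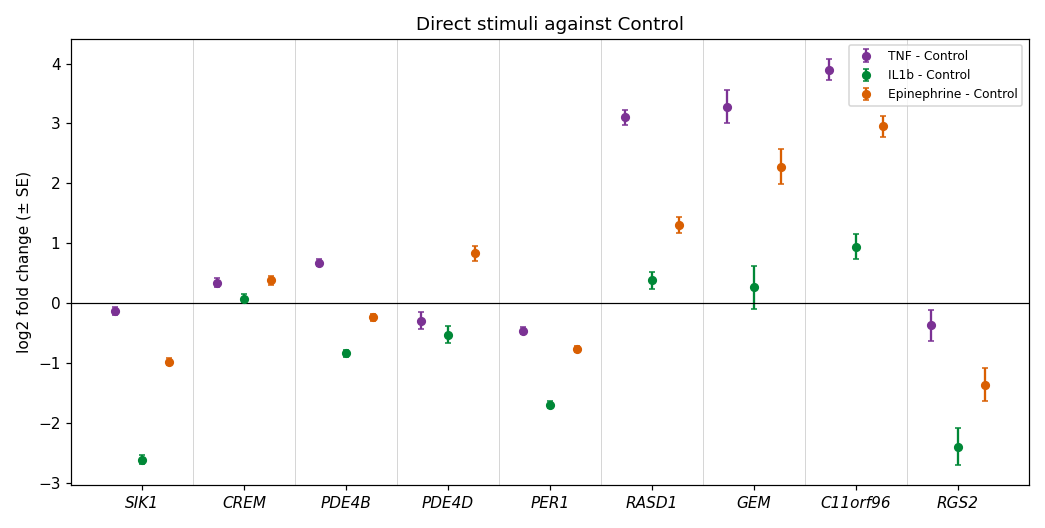
Log2 fold change against Control (points, bars are ± SE of the edgeR fit) of the 9 genes with TNF, IL1b and Epinephrine, n = 3 libraries per group. RASD1, GEM and C11orf96 reach 3.10, 3.28 and 3.90 with TNF, while SIK1 and RGS2 lie at -2.62 and -2.40 with IL1b.

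The stimuli were also compared with each other, with libraries that stood in none of the comparisons named in the choice of genes. The members were chosen with earlier results of these data known, so it is not established that these comparisons are free of that choice. IL1b was lower than TNF for 8 members and higher for 0, where 21.4% and 19.9% of all genes were called, with PDE4D as the exception. The largest of these differences were those of GEM (-3.02, SE 0.27, adjusted p = 3.28e-07, edgeR), C11orf96 (-2.96, SE 0.158, adjusted p = 3.41e-10) and RASD1 (-2.72, SE 0.115, adjusted p = 1.05e-20). SIK1 was 5.61-fold lower in IL1b than in TNF (-2.49, SE 0.0726, adjusted p = 4.59e-25, edgeR). Under total-count scaling the CREM difference of -0.27 (adjusted p = 0.00277, edgeR) shrank to -0.08 (adjusted p = 0.367). Epinephrine was above IL1b for all 9 members, where 16.3% of all genes were called higher and 17.7% lower, by 0.31 for CREM (adjusted p = 0.00105, edgeR) up to 2.02 for GEM (adjusted p = 5.68e-05). For SIK1 the difference was 1.64 (SE 0.0737, adjusted p = 2.67e-19, edgeR) and for C11orf96 it was 2.01 (SE 0.161, adjusted p = 1.07e-07). The RGS2 difference of 1.03 (adjusted p = 0.0181, edgeR) missed the threshold without IL1b replicate 1 (1.00, adjusted p = 0.0529) or replicate 2 (0.77, adjusted p = 0.111). Epinephrine was below TNF for 7 members and above it for PDE4D, where 23.3% of all genes were called lower and 22.6% higher. CREM differed by 0.03 between these groups (interval -0.11 to 0.18, adjusted p = 0.733, edgeR), and by 0.30 (adjusted p = 0.000513) with total-count scaling. That scaling put 2 members above TNF and 6 below in Epinephrine (49.9% and 12.4% of all genes), and 0 above and 7 below in IL1b (40.9% and 12.8%).

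The comparisons that helped to choose the genes are given next as values alone. With C5a, 7 of the 9 members lay wholly below Control, CREM and GEM being the others, where 20.6% of all genes did so. The C5a log2 differences were -3.16 for SIK1 (8.96-fold lower), -1.97 for RGS2, -1.84 for C11orf96, -1.71 for PER1, -1.43 for RASD1, -1.04 for PDE4B and -0.30 for PDE4D. CREM and GEM stood at -0.07 and -0.08. The values just inside and just outside the separation were close, since the highest C5a library of PDE4D was at 7.15 CPM against 7.2 for the lowest Control library, and CREM overlapped with 29.7 against 29.3. EV-Control lay wholly above Control for 7 members (17.7% of all genes), by 3.78 for C11orf96, 3.37 for GEM, 2.69 for RASD1, 1.43 for PDE4D, 0.47 for PDE4B, 0.39 for the SIK1 row and 0.30 for PER1. CREM (0.13) and RGS2 (0.31) overlapped.

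Relative to EV-Control, 6 members lay wholly lower in EV-TNF (13.9% of all genes), 7 in EV-IL1b (14.4%), 7 in EV-Epinephrine (17.3%) and 1 in EV-C5a (5.64%). These comparisons share the EV-Control libraries. For GEM the values were -2.69, -2.69, -2.99 and -0.27 in EV-TNF, EV-IL1b, EV-Epinephrine and EV-C5a. For C11orf96 they were -1.93, -2.0, -3.48 and -0.32 in the same order, and for RASD1 -1.92, -2.01, -2.61 and -0.70. SIK1 stood at -0.77, -0.75, -1.41 and -0.20, PER1 at -1.04, -0.97, -1.38 and -0.27 and PDE4B at -1.05, -1.04, -1.38 and -0.28. PDE4D and RGS2 overlapped EV-Control in all 4 groups. The separation of CREM in EV-Epinephrine was narrow, at 27.5 against 28 CPM, and was lost with CPM of total counts. Within EV-Control, replicate 3 was the lowest library for 7 members and the highest for SIK1 and RGS2, while replicate 1 was the reverse. Leaving out any 1 library shifted no member's log2 difference by more than 0.35 in these 6 comparisons or in the 6 tested ones.

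**Figure D3:**
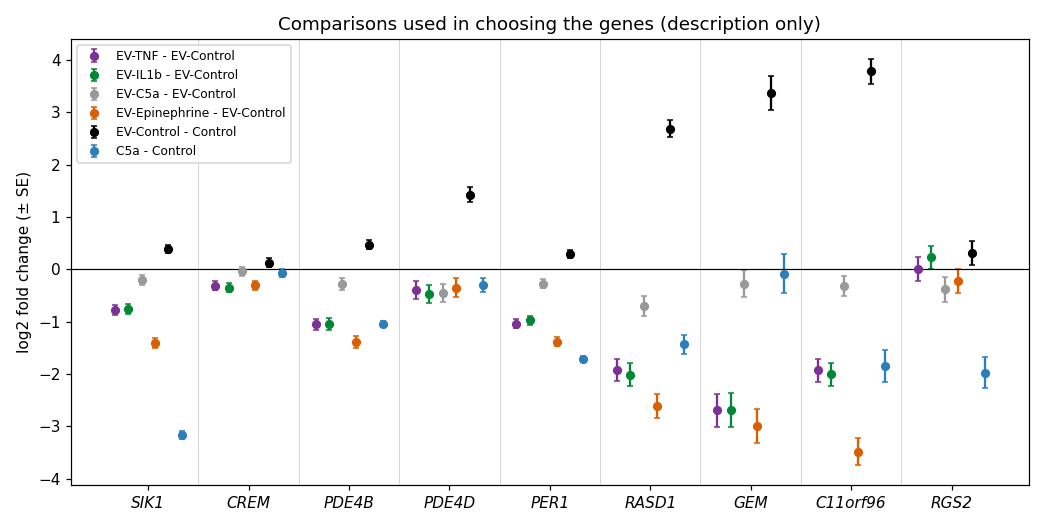
Log2 fold changes (points, bars are ± SE of the edgeR fit) of the 9 genes in the 6 comparisons that helped to choose them, shown as a description with n = 3 libraries per group. The grey points of EV-C5a lie between -0.70 and -0.04, and control vesicles against no vesicles (black) reach 3.78 for C11orf96.

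The treated vesicle groups were then set against each other, as a description. Their libraries served in the comparisons with EV-Control that helped to choose the genes, so nothing is read from the member counts of vesicle groups. EV-TNF and EV-IL1b overlapped for all 9 members, with 0 wholly higher or lower in EV-IL1b, where 5.94% and 5.86% of all genes were. The direct groups TNF and IL1b were separate for 8 members, all lower in IL1b (27% of all genes). EV-Epinephrine lay wholly below EV-TNF for 5 members, SIK1, PDE4B, PER1, RASD1 and C11orf96 (12.5% of all genes). It lay below EV-IL1b for the same 5 and RGS2 (12.9% of all genes) and above it for PDE4D (11.7%). C11orf96 showed the widest gap, with means of 6.77 CPM in EV-Epinephrine, 19.9 in EV-TNF and 18.8 in EV-IL1b.

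Each stimulus was also compared with the vesicles of cells given it, as a description. The C5a and vesicle libraries served in comparisons that helped to choose the genes. Low levels with C5a were part of that choice, so nothing is read from the counts of members. The 2 groups of each pair also differ in whether the cells received vesicles. EV-C5a lay wholly above C5a for all 9 members (17.4% of all genes), with means of 164 against 16 CPM for SIK1 and 60.1 against 1.51 for C11orf96. EV-IL1b lay above IL1b for 6 members (24.7% of all genes), among them SIK1 (112 against 23.4 CPM) and RGS2 (5.46 against 0.702), and below it for CREM (25.2% of all genes). EV-TNF lay below TNF for 7 members (29.2%) and above it for PDE4D and RGS2 (27.8%). EV-Epinephrine lay below Epinephrine for 6 members (17%), above it for PDE4D and RGS2 (18.4%), and overlapped it for SIK1 (71.2 against 72.9 CPM).

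Some members shared the order of their levels over the 10 groups. SIK1 and PER1 ranked the groups alike (Spearman's rho 1, Pearson's r of log2 CPM 0.94, n = 10 group means), from EV-Control at the top (189 and 481 CPM) to C5a at the bottom (16 and 118). Neighbours in that order often overlapped, as EV-Control did with EV-C5a, EV-IL1b with EV-TNF and, for PER1, IL1b with C5a. RASD1 and C11orf96 also ranked the groups alike (rho 1, r 0.97), from TNF (41.5 and 81.6 CPM) to C5a (1.77 and 1.51), and GEM followed both closely (rho 0.98 with each). These coefficients describe group means that share libraries and entered the choice of genes. CREM and SIK1 had r 0.14. Among 10541 genes other than the 9 members, the gene with the most similar profile was ITPRIP for SIK1 (r 0.992), CD55 for CREM (0.946), PIM3 for PDE4B (0.97), BIN1 for PDE4D (0.952), TGIF1 for RASD1 (0.984), KDM6B for GEM (0.986), TRIB1 for C11orf96 (0.965) and DMWD for RGS2 (0.95), each over the 10 group means of log2 CPM. With Spearman's coefficient the most similar gene was another one for 8 of the 9, all but PDE4D.

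**Figure D4:**
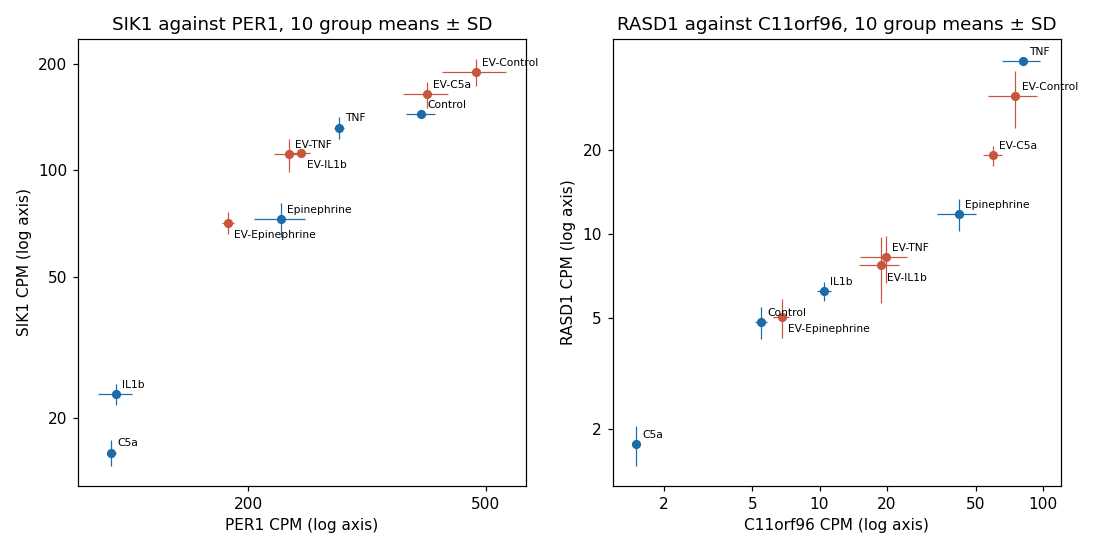
Group means ± SD (n = 3) in CPM on log axes, SIK1 against PER1 (left) and RASD1 against C11orf96 (right), direct groups in blue and vesicle groups in red. The 10 groups have the same order on both axes of each panel, with C5a lowest.

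The machinery around the members was read from 6 lists of genes. The counts of each list stand against the shares of all genes, 27.5% higher and 25.3% lower with TNF, 24% and 22.6% with IL1b and 13.5% and 11.8% with Epinephrine. Under total-count scaling these shares were 14.4% and 48.9%, 18.3% and 29.1%, and 12.5% and 12.6%. Medians over all genes were -0.012, -0.011 and 0.009 on the log2 scale. Of 15 other CREB target genes tested, TNF raised 10 and lowered 1, IL1b raised 2 and lowered 10 and Epinephrine raised 3 and lowered 3, with medians of 0.66, -0.97 and -0.18 on the log2 scale. In IL1b the largest falls were those of the orphan nuclear receptors NR4A1, from 191 ± 8.46 CPM in Control to 17.5 ± 1.16 (-3.44, SE 0.0931, adjusted p = 1.43e-16, edgeR), and NR4A2, from 112 ± 7.02 to 11.1 ± 0.607 (-3.32, adjusted p = 1.03e-09). TNF raised ATF3, a stress-induced transcription factor, by 1.80 (SE 0.177, adjusted p = 5.36e-06, edgeR) and FOSB, a subunit of AP-1, by 1.88 (SE 0.37, adjusted p = 0.00128), while AREG, a growth factor, fell by 1.11. Epinephrine raised EGR1, an immediate early transcription factor (1.04, SE 0.156, adjusted p = 0.000568, edgeR), and BDNF, a neurotrophin (0.84, SE 0.114, adjusted p = 5.94e-07), and lowered DUSP1, a MAP kinase phosphatase (-0.75, SE 0.124, adjusted p = 0.00114). Total-count scaling gave 8 higher and 1 lower in TNF, where it called 14.4% and 48.9% of all genes. The Epinephrine counts of this list lie near the 13.5% and 11.8% of all genes.

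Upstream, 12 genes of cAMP production were tested, and the adenylyl cyclases ADCY9 and ADCY6 fell with TNF by 0.67 and 0.41 (adjusted p = 2.23e-11 and 2.05e-08, edgeR) and with IL1b by 0.55 and 0.36 (adjusted p = 3.36e-09 and 4.44e-07). The cyclase ADCY4, at a low level, went the other way with TNF. It rose by 0.98, from 2.39 CPM in Control to 4.71 (adjusted p = 0.000327, edgeR). In that list TNF raised 4 and lowered 5, IL1b raised 1 and lowered 4 and Epinephrine raised 1, GNAI1, and lowered 3, with medians of -0.19, -0.27 and -0.12. With 27.5% and 25.3% of all genes called in TNF, 24% and 22.6% in IL1b and 13.5% and 11.8% in Epinephrine, these counts are not read as a result about the list. Of the 4 raised with TNF, the inhibitory G protein subunits GNAI3 (0.32) and GNAI1 (0.17) were not past the threshold under total-count scaling, at 0.05 and -0.11, and that scaling left 1 raised and 8 lowered (14.4% and 48.9% of all genes). Of 15 genes for protein kinase A, its anchors and inhibitors and the EPAC exchange factors, IL1b lowered 12 and raised 0, where 22.6% and 24% of all genes were called. TNF lowered 9 and raised 4 (25.3% and 27.5% of all genes), and with total-count scaling 11 and 2 (48.9% and 14.4%). Epinephrine lowered 3 and raised 2, near the 11.8% and 13.5% of all genes. The medians of this list were -0.37, -0.29 and -0.09 with TNF, IL1b and Epinephrine. RAPGEF4, which encodes EPAC2, fell with TNF by 1.46 (SE 0.118, adjusted p = 5.12e-13, edgeR), and RAPGEF3, which encodes EPAC1, fell with IL1b by 1.04 (SE 0.183, adjusted p = 1.21e-05).

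Among 12 genes of the CREB family, its coactivators and their repressors, CREB1 rose with all 3 stimuli, by 0.68 with TNF, 0.50 with IL1b and 0.25 with Epinephrine (adjusted p = 6.04e-12, 1.07e-08 and 0.0024, edgeR). Its coactivator CRTC1 fell with all 3, by 0.81, 0.47 and 0.35 in the same order (adjusted p = 2.41e-09, 4.61e-05 and 0.00263). HDAC5, a class IIa deacetylase that SIK kinases phosphorylate, fell by 0.67, 0.91 and 1.26 (adjusted p = 4.83e-11, 6.24e-14 and 2.84e-16, edgeR). In the list as a whole TNF raised 4 and lowered 2, IL1b raised 4 and lowered 3 and Epinephrine raised 1 and lowered 4, with medians of 0.12, 0.09 and -0.01. The TNF and IL1b counts lie near the shares of all genes, 27.5% and 25.3% and 24% and 22.6%, and those of Epinephrine stand beside 13.5% and 11.8%. With total-count scaling TNF raised 1 and lowered 5 (14.4% and 48.9% of all genes).

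The relatives of the members did not all move with them. Of 11 paralogs tested, TNF raised 6 and lowered 3, IL1b raised 5 and lowered 3 and Epinephrine raised 2 and lowered 2, with medians of 0.19, 0.08 and 0.16, and CREB1 stands in this list too, as a relative of CREM. Of all genes TNF raised 27.5% and lowered 25.3%, IL1b 24% and 22.6% and Epinephrine 13.5% and 11.8%. SIK2 differed from Control by -0.18 with IL1b (adjusted p = 0.0202, edgeR) and SIK3 by 0.29 (adjusted p = 0.000313), beside the -2.62 of SIK1. PER2 rose with IL1b by 1.07 (SE 0.208, adjusted p = 5.21e-05, edgeR), where PER1 fell by 1.70. The level of PER2 was low, 2.43 ± 0.227 CPM in Control and 5.11 ± 0.98 in IL1b, against 390 CPM for PER1 in Control. PER3 stood at 7.05 ± 0.414 CPM in Control and 7.31 ± 1.16 in IL1b. RRAD, a GTPase related to GEM, rose with TNF from 24.1 ± 4.52 to 126 ± 32.8 CPM (2.38, SE 0.188, adjusted p = 5.31e-07, edgeR) and fell with IL1b by 1.13 (SE 0.226, adjusted p = 0.00163). RGS4, related to RGS2, rose with TNF, IL1b and Epinephrine by 0.83, 0.75 and 1.02 (adjusted p = 1.05e-09, 8.09e-09 and 3.28e-10, edgeR), while RGS2 fell with IL1b and Epinephrine. Of 7 other cAMP phosphodiesterases tested, TNF raised 2 and lowered 2, IL1b raised 2 and lowered 3 and Epinephrine raised 2 and lowered 1, with medians of -0.11, -0.25 and 0.16. These counts are not read as a result about the list, since the shares of all genes just given correspond to similar numbers. PDE10A rose with TNF by 0.67 (SE 0.0765, adjusted p = 2.8e-09, edgeR), PDE7B fell with it by 1.30 (SE 0.18, adjusted p = 1.27e-07), and PDE4A fell with IL1b by 0.48 (SE 0.0851, adjusted p = 1.45e-05). With total-count scaling TNF raised 3 and lowered 5 of the paralogs, and raised 1 and lowered 5 of these phosphodiesterases, of which IL1b then raised 1 and lowered 3 and Epinephrine raised 1 and lowered 1. The shares of all genes under that scaling were 14.4% and 48.9% in TNF, 18.3% and 29.1% in IL1b and 12.5% and 12.6% in Epinephrine.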

How the data were processed

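RNA was sequenced from 30 hCMEC/D3 libraries in 10 groups of 3, with the NEBNext Ultra kit and 1 ng of RNA per library, per the labels' protocols. The file deposited by the authors holds raw counts of reads for each Ensembl gene, without normalization. The submitters' processing notes name hg38, FastQC, STAR, R 4.4.1 and DESeq2, without roles. The counting program, the annotation release and the use of strand are not given in the sources used here. All libraries carry the label of 1 batch. Of 63147 lines, 4 without a gene ID (0.000789% to 0.00164% of counts), 2 gene IDs without counts and repeats of 3 IDs were left out, which leaves 63138 genes.

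The analysis used edgeR 4.0.16 in R 4.3.3, with filterByExpr at its defaults, trimmed mean of M-values factors and the quasi-likelihood test with robust dispersions, two-sided, with Benjamini-Hochberg adjustment over all genes tested and a threshold of 0.05. SE is the size of the log2 fold change divided by the square root of F, and intervals are 95%. Direct comparisons used the 15 direct libraries (15908 genes), vesicle comparisons the 15 vesicle libraries (15918 genes), and EV-Control against Control all 30 (16691 genes). The 6 comparisons that helped to choose the genes were not tested. CPM uses factors over all 30 libraries. The members and the gene lists were chosen with earlier results of these data known. All 9 members are named. From each pathway list, text names were taken among the 2 largest rises and 2 largest falls past the threshold with at least 5 CPM in the higher group, for TNF, IL1b and Epinephrine. ADCY4, SIK2 and SIK3 fall outside this rule and were added after their values were seen. Profiles were compared over group means of log2 CPM (prior count 2) among genes with a mean of at least 5 CPM, the members left out. The most similar profile to that of PER1 is not reported here.

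Promoter windows came from RefSeq (GRCh38.p14), and positions, exons and exon lengths from GENCODE 29. Tested on simulated data for TNF against Control with 200 genes changed by 1 on the log2 scale among 14617, the edgeR step found 184, with 8 false calls. In the measured TNF comparison 52.7% of 15908 genes were called, so the simulation does not gauge errors under so broad a change. For counting error, 0 reads observed are compatible with up to 3, and duplicate reads cannot be told from molecules. Alternatives were relative log expression factors, total-count scaling, DESeq2 1.42.0, no filter or a minimum mean of 50 counts, a replicate block, other sets of libraries in the fit, leaving out each library, a log2 fold change over 1, and for SIK1, chosen after seeing the data, the sum with its copy.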

Additional observations from a re-analysis of the deposited data

Results flagged for a closer look

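For 10 pairs of member and stimulus, every library of the directly treated group lay on one side of Control and every library of the matching vesicle group on the opposite side of EV-Control. In each the direct value was above 0 and the vesicle value below 0, and the difference itself was not tested. Of 15450 genes, 6.31% had this pattern with TNF, 4.54% with IL1b and 4.61% with Epinephrine, and the reverse one was shown by 4.39%, 3.71% and 4.16%. The vesicle comparisons helped to choose the genes, which fixes the sign of that side, so nothing is read from the count of members. With TNF, the vesicle minus direct log2 fold change was -1.72 for PDE4B, -5.02 for RASD1, -5.97 for GEM and -5.82 for C11orf96. With IL1b it was -2.39 for RASD1 and -2.94 for C11orf96. With Epinephrine it was -0.68 for CREM, -3.92 for RASD1, -5.27 for GEM and -6.42 for C11orf96. The CREM pair was narrow, with 27.5 CPM in the highest EV-Epinephrine library against 28 in the lowest of EV-Control. With CPM of total counts these libraries overlapped, at 28.3 against 28.2. For C11orf96 with Epinephrine, the direct rise was 2.95 and the vesicle value -3.48. The 2 values of a pair have different controls, and EV-Control itself stood above Control for RASD1, GEM and C11orf96 by 2.69, 3.37 and 3.78.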

How the results depend on the processing

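Of the 54 tested results for single members, 44 kept their direction and their side of the threshold under every alternative run, and 10 did not. The exceptions whose calls were lost or gained are given beside their values in the report, and the 2 changes of sign were values not past the threshold. They are CREM with IL1b, at -0.01 with total-count scaling, and CREM in Epinephrine against TNF, at -0.01 without Epinephrine replicate 2. SIK1 with TNF was also past the threshold at -0.40 with total-count scaling and at -0.15 with the filter at 50 counts, and PDE4D with TNF was at -0.57 with total-count scaling. The described fold changes kept their size within the spread between replicates.

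With a log2 fold change over 1 required beside the adjusted p, the members past the threshold numbered 3 for TNF, 3 for IL1b and 4 for Epinephrine against Control, 3 for Epinephrine against TNF and 5 for Epinephrine against IL1b. For IL1b against TNF the members past it were SIK1, PDE4B, PER1, RASD1, GEM, C11orf96 and RGS2. Of the 15908 genes tested, those past it then numbered 2037, 1118 and 313 for TNF, IL1b and Epinephrine, 1124 for IL1b against TNF, 1633 for Epinephrine against TNF and 701 for Epinephrine against IL1b. With CPM of total counts, 4 members in place of 2 lay wholly below Control in TNF, and 2 in place of 1 wholly above TNF in Epinephrine. In the main CPM, 28.8% and 24.4% of all genes did so, and the shares with total counts are not given here. Other narrow separations were lost with total counts, among them CREM in EV-Epinephrine (28.3 against 28.2 CPM in EV-Control) and PDE4D in C5a (7.46 against 7.41 in Control).

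Leaving out 1 library, members past the threshold numbered 6 to 7 in TNF, 6 to 7 in IL1b, 9 in Epinephrine, 8 in IL1b against TNF, 8 in Epinephrine against TNF and 8 to 9 in Epinephrine against IL1b. Over all genes, those past it numbered, in the same order, 7655 to 7950, 6529 to 6804, 3029 to 4440, 5852 to 5964, 6605 to 7337 and 4454 to 5247. Replicate numbers were shared between groups, but in no comparison did all 3 same-numbered pairs have deviations correlated above 0.1, so the numbers were not read as a pairing. With a replicate block, 6, 7 and 9 members passed for TNF, IL1b and Epinephrine against Control and 8, 8 and 9 for IL1b against TNF, Epinephrine against TNF and Epinephrine against IL1b, and 0 of the 54 results changed their call or direction. The block gave 8339 genes past the threshold for TNF, 7351 for IL1b, 3912 for Epinephrine, 6533 for IL1b against TNF, 7238 for Epinephrine against TNF and 5308 for Epinephrine against IL1b. With 8 to 119 counts in a library, depth limits RGS2 most.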
